A study of Danio rerio with 20 samples.

Results

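The 3H set of a zebrafish study of lipopolysaccharide (LPS) was compared here: 5 gonad samples from fish given LPS as larvae and 5 gonad samples from control fish, which are 10 of the 20 samples in the series. The samples were chosen by their titles (set 3H, numbers L1 to L5, LPS or CT), without use of any measured value. All were AB strain laboratory fish of 90 days. Those in the LPS group had received LPS of Pseudomonas aeruginosa at the larval stage, and those in the control group are labelled as controls. What 3H and L stand for, the dose, the sex of the fish, and whether a sample is 1 fish or a pool are not stated in the labels. The p-values of group differences therefore set a difference against the spread between these samples only, and part of that spread may be technical. The labelled tissue could not be checked against markers, because only DNA methylation of a few amplicons was read. The series title places the work in sex differentiation under inflammation. The comparison asks whether gonadal DNA methylation of adults differed after larval exposure.

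LPS, a glycolipid from the outer membrane of Gram-negative bacteria, is a strong trigger of innate immunity in mammals. DNA methylation in vertebrates sits mostly on cytosines of CpG dinucleotides. CpG-rich stretches at gene starts are usually free of it, while most CpGs elsewhere carry it. Laboratory zebrafish such as AB have no fixed sex chromosome, their sex depends on many loci and can be shifted by the environment, and ovary and testis differ in methylation at genes of sex differentiation. A gonad is a mixture of germ cells and somatic cells, and a change in its cell mixture cannot be told apart from a change within cells in bulk DNA.

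In targeted bisulfite sequencing, chosen regions are amplified by PCR after a treatment that turns unmethylated cytosine, but not methylated cytosine, into a base read as thymine. The share of reads that keep a cytosine is taken as the methylation level of the CpG. A thymine in the DNA itself would read like an unmethylated cytosine, and sequence variants at these positions were not tested. The 10 tables recorded 396 positions, of which 139 were kept: those with 10 or more reads in no fewer than 4 samples of each group of 5. These 139 CpGs lay in 8 amplicons, and no kept CpG lay outside them. Where a sample fell short of 10 reads it gave no value, which happened at 4 of the 139. Coordinates refer to GRCz11 and start at 1. Gene models of that build were not used here, so amplicons are named by chromosome and position, were not assigned to genes, exons or introns, and no sequence is printed.

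Libraries held between 601096 and 1443230 methylation calls in the LPS group and between 721113 and 1858242 in the control group, and at least 99.87% of each lay at the kept CpGs. Depth varied by amplicon. In the first of the 2 chromosome 5 amplicons the median reads per CpG of a sample were 22, 468, 24, 71 and 33 in LPS samples 1 to 5, against 4758, 1947, 2281.5, 703 and 3563 in controls 1 to 5. Every LPS sample was therefore shallower there than every control, and depth moved with the treatment in this amplicon. Elsewhere the depth ranges of the groups overlapped, but group medians differed. They were lower in LPS samples on chromosome 3 (2844 against 8091 in controls) and in the second chromosome 5 amplicon (5142 against 12195). The same held on chromosomes 10 (2926 against 5232) and 24 (3336 against 10331). LPS medians were higher on chromosomes 18 (10035.5 against 4611), 19 (9588 against 6423) and 23 (15303 against 9403). Control 1 had 191 reads per CpG on chromosome 18, where the other 9 samples had between 3734 and 23409. LPS sample 5 had 487 reads per CpG on chromosome 19, where the others had between 1227 and 20307. Both libraries stood apart in the same amplicon in which they were shallow, and the results that rest on them are given with and without them. Reads were counted without molecular identifiers, so PCR copies of a molecule could not be told apart. Binomial intervals therefore cover the counting error of reads only, not the sampling of DNA molecules, and may be too narrow.

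**Figure D1:**
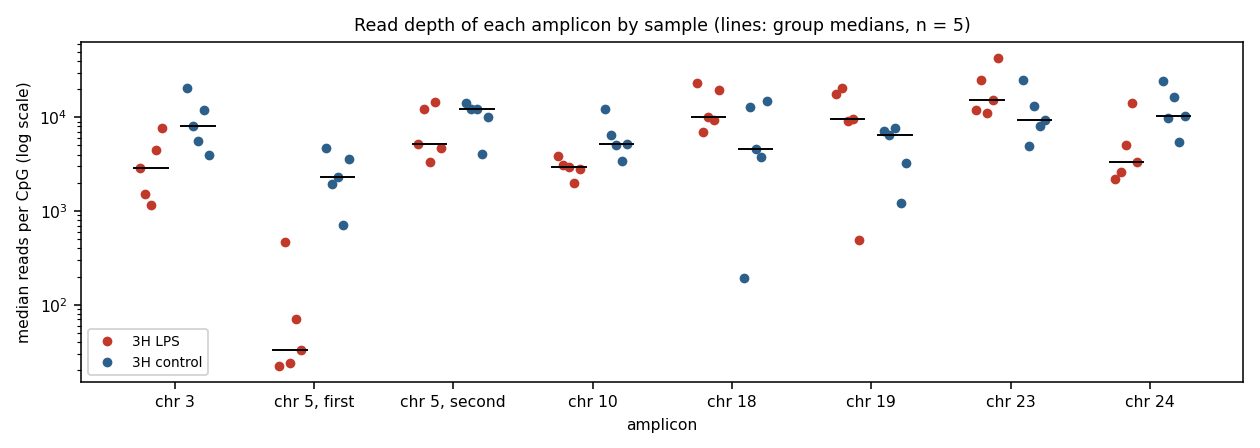
Median reads per CpG (log scale) of each amplicon in the 5 LPS samples (red) and the 5 controls (blue) of the 3H set, with group medians as lines. The groups do not overlap in the first chromosome 5 amplicon, where LPS samples reach at most 468 reads and controls at least 703, and single low points mark control 1 on chromosome 18 (191) and LPS sample 5 on chromosome 19 (487).

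Of the 8 amplicons, 2 were lower in LPS than in control gonads, and both were almost unmethylated in either group: the chromosome 23 amplicon and the second chromosome 5 amplicon. The differences were -0.192 and -0.148 percentage points. The other 6 amplicons did not pass the test, which was a two-sided exact permutation test of the difference of group means with Benjamini-Hochberg adjustment over the 8 amplicons and a threshold of 0.05. The background for such calls is thus 25% of amplicons. No single CpG passed (edgeR quasi-likelihood test with Benjamini-Hochberg adjustment over 139 CpGs: 0 called, background 0%, lowest adjusted p = 0.167). Unadjusted, 13 CpGs (9.35% of those tested) had a p under 0.05, where 6.95 would be expected. Of these, 12 were lower in LPS (8.63% of all tested) and 1 was higher (0.719%). CpGs of an amplicon are read in the same samples and are not independent, so 13 against 6.95 does not show an excess. Limma also called none and had 13 at an unadjusted p under 0.05, and an exact permutation test per CpG called none and had 10. Group means were lower in LPS at 98 CpGs (70.5%), higher at 35 and equal, at 0%, at 6. The median difference over all 139 was -0.21 percentage points.

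**Figure D2:**
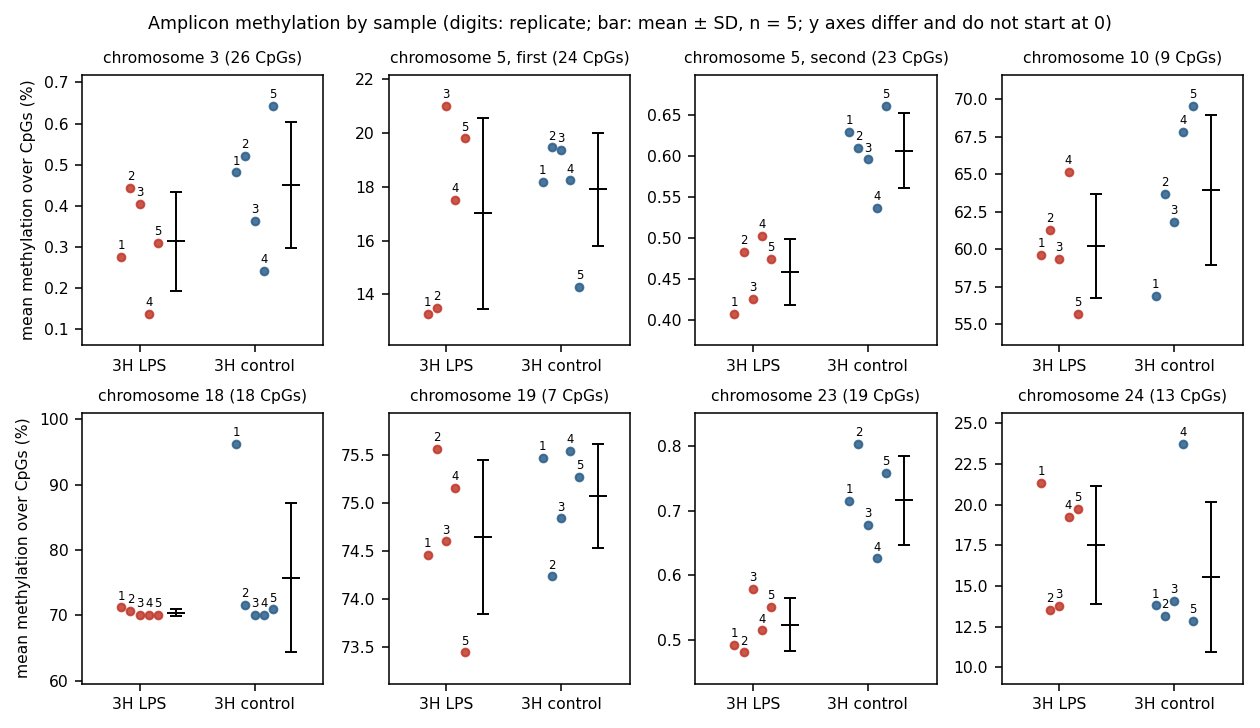
Mean methylation over the CpGs of each amplicon in percent, 1 point per sample with its replicate number, LPS left and control right, with mean ± SD (n = 5). All LPS points lie below all control points on chromosome 23 (at most 0.580% against at least 0.626%) and in the second chromosome 5 amplicon (at most 0.503% against at least 0.537%), and the groups overlap in the other 6 panels.

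The chromosome 23 amplicon (24973689 to 24974060, 19 CpGs in 372 bp) was at 0.493%, 0.481%, 0.580%, 0.515% and 0.551% in LPS samples 1 to 5, against 0.715%, 0.803%, 0.678%, 0.626% and 0.757% in controls 1 to 5. Every LPS sample was below every control. The means were 0.524% ± 0.0408 in LPS samples and 0.716% ± 0.0685 in controls (SD, n = 5 each; exact permutation interval of the difference -0.276 to -0.105, p = 0.00794, adjusted p = 0.0317). No smaller p can come from groups of 5 and 5. Means were lower in LPS at 18 of its 19 CpGs, against 70.5% of all CpGs, and 24973764 was the exception, at 0.667% ± 0.111 in LPS samples and 0.527% ± 0.250 in controls (SD, n = 5 each). The difference was spread along the amplicon: the median over its CpGs was -0.17 percentage points. Of its CpGs, 5 had an unadjusted edgeR p under 0.05, against 9.35% of all CpGs, and none passed the adjustment. By median over CpGs instead of the mean, the amplicon difference was -0.188 and its call was lost (exact permutation test, adjusted p = 0.0635).

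The CpG of smallest p in the whole set was 24973822, in the middle of this amplicon. It read 0.512%, 0.499%, 0.498%, 0.497% and 0.3998% in LPS samples 1 to 5, against 0.9799%, 0.804%, 0.992%, 1.10% and 0.575% in controls 1 to 5. The groups did not overlap, which held at 2 of the 139 CpGs (1.44%), both lower in LPS. Behind these values were between 55 methylated of 11048 reads and 172 of 43023 in LPS samples, and between 40 of 4974 and 242 of 24697 in controls. Of the LPS samples, 1 to 4 were nearly equal and sample 5 was lower, whereas the controls ranged widely. The log2 odds difference was -0.87 (edgeR adjusted p = 0.167). With single samples left out in turn, the edgeR adjusted p of this CpG ran from 0.0168 to 0.414. The lowest came without control 5, the control nearest to the LPS samples, whose removal widens the difference. At 24973894, LPS samples read 0.277%, 0.459%, 0.380%, 0.640% and 0.4999% (samples 1 to 5), against 0.615%, 0.844%, 0.845%, 1.36% and 1.02% in controls 1 to 5. Here LPS sample 4 lay just above control 1, and the other samples did not mix (log2 odds difference -1.05, edgeR adjusted p = 0.209). With the replicate number as a block in the fit, the edgeR adjusted p at 24973894 was 0.0470. The labels do not state whether these numbers pair the samples. The other CpGs of this amplicon with an unadjusted edgeR p under 0.05 were 24973776, 24973957 and 24974060. They averaged 0.385% ± 0.0361, 0.465% ± 0.180 and 0.354% ± 0.230 in LPS samples, and 0.680% ± 0.264, 0.730% ± 0.239 and 0.638% ± 0.168 in controls (SD, n = 5 each). Their edgeR adjusted p lay between 0.381 and 0.505.

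The second chromosome 5 amplicon (67992793 to 67993138, 23 CpGs in 346 bp) was at 0.407%, 0.483%, 0.426%, 0.503% and 0.475% in LPS samples 1 to 5, against 0.630%, 0.611%, 0.596%, 0.537% and 0.662% in controls 1 to 5. Again every LPS sample was below every control. Means were 0.459% ± 0.0404 in LPS samples and 0.607% ± 0.0463 in controls (SD, n = 5 each; difference -0.148 percentage points, exact permutation interval -0.212 to -0.0810, p = 0.00794, adjusted p = 0.0317). LPS means were lower at 17 of 23 CpGs, higher at 3 and equal at 3, against 70.5% of all CpGs lower in LPS. By the median over CpGs the difference was -0.132 percentage points and the call was lost (exact permutation test, adjusted p = 0.0635).

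At its CpG 67992872 the groups did not overlap: 0.778%, 0.783%, 0.360%, 0.451% and 0.172% in LPS samples 1 to 5, against 0.798%, 0.820%, 1.09%, 1.41% and 1.05% in controls 1 to 5. LPS samples 1 and 2 lay just under controls 1 and 2, and LPS sample 5, with 8 methylated of 4650 reads, was lowest. The log2 odds difference was -1.10 (edgeR adjusted p = 0.356). CpG 67993038 averaged 0.344% ± 0.0659 in LPS samples and 0.550% ± 0.166 in controls (SD, n = 5 each; edgeR adjusted p = 0.398). In this amplicon 4 kept positions (67992793, 67992831, 67992865 and 67992986) had under 5% of the amplicon's depth, between 2 and 138 reads per sample. They showed 0 methylated reads in LPS samples and 2 in controls, both at 67992831. Without them the amplicon difference was -0.162 percentage points (exact permutation adjusted p = 0.0317).

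Both calls needed all 5 LPS samples: with any of them left out, the groups still did not overlap but neither amplicon passed. Differences then lay between -0.206 and -0.181 percentage points on chromosome 23 and between -0.159 and -0.135 in the second chromosome 5 amplicon, with exact permutation adjusted p = 0.0635 in each case. In the complete groups, a single amplicon at the smallest possible p would also have this adjusted p if no other were as low. Each call there thus needs the other. Both amplicons are read in the same samples, so their calls are not independent. In both, control 4 was the lowest control and control 3 the next. In the second chromosome 5 amplicon the place of control 3 rested on sparsely read positions. On the CpGs that every sample covered there, control 2 (0.591%) was next, below control 3 (0.623%). The lowest LPS sample was sample 2 on chromosome 23 and sample 1 in the second chromosome 5 amplicon. With a sample left out the groups differ in size and the possible p-values change, so the loss alone does not show a smaller difference. Leaving out any control kept both calls. A conversion control was not used here. Unconverted cytosines and base-call errors are counted as methylated, so levels below 1% hold an unknown share of them, and their part in these differences was not tested.

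The chromosome 3 amplicon (54607068 to 54607470, 26 CpGs in 403 bp) was the third one near 0. It read 0.276%, 0.443%, 0.405%, 0.137% and 0.309% in LPS samples 1 to 5, against 0.481%, 0.522%, 0.364%, 0.242% and 0.643% in controls 1 to 5. The groups overlapped, with LPS sample 4 lowest and control 5 highest. Means were 0.314% ± 0.120 in LPS samples and 0.450% ± 0.153 in controls (SD, n = 5 each; difference -0.136 percentage points, exact permutation interval -0.356 to 0.0667, adjusted p = 0.402). The size was like that of the called amplicons, and the spread between samples was about that large in each group. LPS means were lower at 18 of 26 CpGs, against 70.5% of all CpGs.

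Among controls, single CpGs of chromosome 3 varied more than those of the other amplicons near 0: the median SD over CpGs was 0.291 on chromosome 3, 0.219 in the second chromosome 5 amplicon and 0.239 on chromosome 23. Among LPS samples it was 0.141, 0.155 and 0.149 in the same order. The medians of the second chromosome 5 amplicon include 4 sparsely read positions. At 3 of these every sample read 0%, so the SD was 0, which lowers these medians. The order among controls rested on single samples. Without control 5 the median SD was 0.207 on chromosome 3 and 0.216 on chromosome 23, and without control 2 it was 0.228 and 0.232. At some CpGs 1 sample carried the group mean. The single CpG with an unadjusted edgeR p under 0.05 that was higher in LPS, among all 139, was 54607163. It read 1.69%, 0.397%, 1.46%, 0.360% and 0.957% in LPS samples 1 to 5, against 0.309%, 0.445%, 0.217%, 0.149% and 0.125% in controls 1 to 5 (log2 odds difference 1.86, edgeR adjusted p = 0.245). LPS samples 1, 3 and 5 were above all controls, and LPS samples 2 and 4 were among them. Only 2 bp on either side, the means ran 0.747% ± 0.921 in LPS samples and 0.405% ± 0.366 in controls at 54607161, and 0.355% ± 0.142 in LPS samples and 0.954% ± 1.02 in controls at 54607165 (SD, n = 5 each). The LPS mean was thus higher at 1 of these neighbours and lower at the other, and at each the SD of at least 1 group was wider than the difference. At 54607221, means were 0.148% ± 0.129 in LPS samples and 0.405% ± 0.149 in controls (SD, n = 5 each; edgeR adjusted p = 0.356). The CpGs 54607103 and 54607259 also had an unadjusted edgeR p under 0.05 and were lower in LPS, at 0.137% ± 0.0690 and 0.198% ± 0.140 in LPS samples and 0.724% ± 0.718 and 0.925% ± 0.889 in controls (SD, n = 5 each). At 54607198 the LPS mean of 0.951% ± 1.62 rested on LPS sample 2 at 3.84%, with the other LPS samples from 0.0900% to 0.514% and controls at 0.265% ± 0.179 (SD, n = 5 each). At 54607320 the control mean of 0.951% ± 1.29 rested on control 1 at 3.18%, with the LPS samples at 0.0878% ± 0.103 (SD, n = 5 each).

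**Figure D3:**
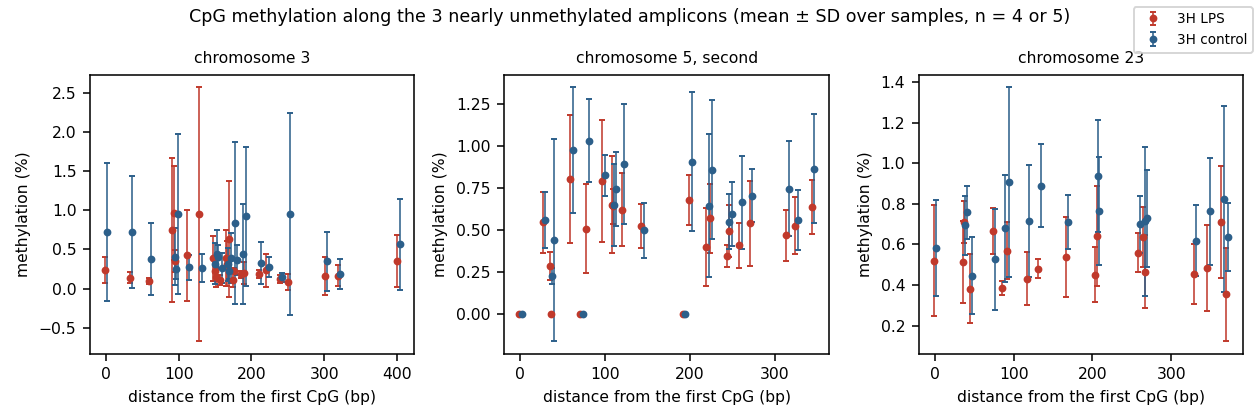
Methylation in percent (mean ± SD over samples, n = 4 or 5) of each CpG against its distance in bp from the first CpG, for the 3 nearly unmethylated amplicons, LPS in red and control in blue. LPS means lie under control means at 18 of 19 CpGs on chromosome 23, 17 of 23 in the second chromosome 5 amplicon and 18 of 26 on chromosome 3, where the error bars are longest. Over all kept CpGs of the 8 amplicons the share was 70.5%.

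The chromosome 10 amplicon (44956550 to 44956872, 9 CpGs in 323 bp) was mostly methylated. It read 59.6%, 61.3%, 59.4%, 65.2% and 55.7% in LPS samples 1 to 5, against 56.9%, 63.7%, 61.8%, 67.8% and 69.6% in controls 1 to 5. The groups overlapped. The means were 60.2% ± 3.45 in LPS samples and 64.0% ± 5.02 in controls (SD, n = 5 each; difference -3.74 percentage points, exact permutation interval -10.2 to 2.93, adjusted p = 0.413). Its CpGs formed 3 kinds. The first 7 CpGs, within 98 bp, lay between 52.1% and 70.0% in LPS samples and between 52.5% and 69.4% in controls by group mean. The eighth, 178 bp further on, was at 93.7% ± 0.718 in LPS samples and 94.4% ± 1.31 in controls (SD, n = 5 each). The last, another 47 bp on, was the variable CpG described next.

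CpG 44956872 read 0.131%, 0.193%, 0.376%, 45.1% and 0.176% in LPS samples 1 to 5, against 0.271%, 48.8%, 45.0%, 44.2% and 47.6% in controls 1 to 5. Sample values fell on a level under 1% and a level from 44.2% to 48.8%, with nothing between, and 1 LPS sample and 4 controls were on the upper level. The counting error of reads was small. For LPS sample 4, with 895 methylated of 1986 reads, the Wilson 95% interval was 42.9% to 47.3%. For control 1, with 33 of 12199 reads, it was 0.193% to 0.380%. The group means of 9.19% ± 20.1 in LPS samples and 37.2% ± 20.7 in controls (SD, n = 5 each) therefore average separate levels and describe no single sample. The log2 odds difference was -6.81 (edgeR adjusted p = 0.356). Without this CpG the amplicon difference was -0.713 percentage points.

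The first 7 CpGs of chromosome 10 moved together across samples. Averaged over them, LPS samples 1 to 5 were at 63.2%, 65.5%, 63.0%, 63.9% and 58.0%, against 59.9%, 61.4%, 59.7%, 67.3% and 68.9% in controls 1 to 5. LPS samples 1 to 4 fell between a lower trio of controls and a higher pair, and LPS sample 5 was the lowest of the 10. LPS sample 5 was the lowest at 6 of the 9 CpGs of the amplicon, and control 5 the highest at 7 of 9. At each of the 9 CpGs the SD was larger in controls, against 82 of all 139 CpGs. Without control 1, LPS sample 1 or LPS sample 3 it was larger in controls at 7 of 9. As an example, 44956616 averaged 68.2% ± 2.85 in LPS samples and 69.4% ± 4.75 in controls (SD, n = 5 each). Group means of the other CpGs among the first 7 differed by between -1.52 and 0.852 percentage points, and the lowest edgeR adjusted p among the 7 was 0.914.

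The chromosome 24 amplicon (21640622 to 21640889, 13 CpGs in 268 bp) varied widely between samples at its first pair of CpGs. From 21640648 on, the amplicon ran from intermediate methylation to a few percent at its high-coordinate end. It read 21.3%, 13.5%, 13.8%, 19.2% and 19.7% in LPS samples 1 to 5, against 13.8%, 13.2%, 14.1%, 23.7% and 12.9% in controls 1 to 5. LPS samples 1, 4 and 5 and control 4 were high, and the other 6 lay between 12.9% and 14.1%. The means were 17.5% ± 3.62 in LPS samples and 15.5% ± 4.61 in controls (SD, n = 5 each; difference 1.98 percentage points, exact permutation interval -4.66 to 7.26, adjusted p = 0.517). LPS means were higher at 11 of its 13 CpGs, against 35 of all 139 CpGs. The difference was 4.03 without control 4, the control with the highest level, and 1.03 without LPS sample 1, and neither passed.

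The high samples were set apart by the first pair of CpGs, 2 bp from each other. CpG 21640622 read 49.95%, 7.32%, 4.42%, 46.4% and 29.8% in LPS samples 1 to 5, against 7.17%, 3.58%, 4.65%, 89.7% and 4.43% in controls 1 to 5. CpG 21640624 read 48.0%, 10.9%, 7.27%, 40.5% and 45.1% in LPS samples 1 to 5, against 9.83%, 7.71%, 7.63%, 52.1% and 5.87% in controls 1 to 5. The same 4 samples were high at both, but they did not stand in the same proportion: control 4 was far higher at the first CpG than at the second, and LPS sample 5 was lower at the first. For control 4 the Wilson 95% intervals were 88.9% to 90.5% and 50.8% to 53.5%. For LPS sample 5 they were 28.3% to 31.4% and 43.4% to 46.8%. In each of these samples the intervals of the pair did not overlap. Such intervals cover the counting error of reads only, and the sampling of DNA molecules was not tested. The edgeR log2 odds differences were 1.74 and 1.54 (adjusted p = 0.837 and 0.702). Over the other 11 CpGs, LPS samples were at 16.3%, 14.3%, 15.2%, 14.8% and 16.5%, against 14.8%, 14.5%, 15.5%, 15.1% and 14.3% in controls. Of the 4 samples that were high at the first pair, LPS samples 1 and 5 were also the highest here, by a small margin, while LPS sample 4 and control 4 lay among the rest. The means were 15.4% ± 0.945 in LPS samples and 14.8% ± 0.491 in controls (SD, n = 5 each) with a difference of 0.583 percentage points.

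Beyond that pair the profile of chromosome 24 was close in both groups. CpG 21640648 was at 42.9% ± 3.61 in LPS samples and 41.5% ± 3.10 in controls, the highest mean of the amplicon. Next came 26.1% ± 2.55 in LPS samples and 24.1% ± 0.880 in controls at 21640651, and 37.5% ± 0.664 in LPS samples and 37.6% ± 1.20 in controls at 21640666. The level then dropped to 10.6% ± 1.52 in LPS samples and 11.2% ± 1.604 in controls at 21640685, and it reached 4.09% ± 0.462 in LPS samples and 3.61% ± 0.755 in controls at 21640786. A small second rise followed, with 14.2% ± 2.34 in LPS samples and 13.0% ± 1.24 in controls at 21640828, and the last CpG was at 3.78% ± 0.554 in LPS samples and 3.76% ± 0.904 in controls (SD, n = 5 each throughout). Neighbouring CpGs thus could differ widely in level while the group means at each of these 11 CpGs stayed within 1.92 of each other. The samples on the upper level at the chromosome 10 CpG and at this pair were not the same: LPS sample 4 and control 4 were on it at both, LPS samples 1 and 5 on chromosome 24 alone, and controls 2, 3 and 5 on chromosome 10 alone.

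**Figure D4:**
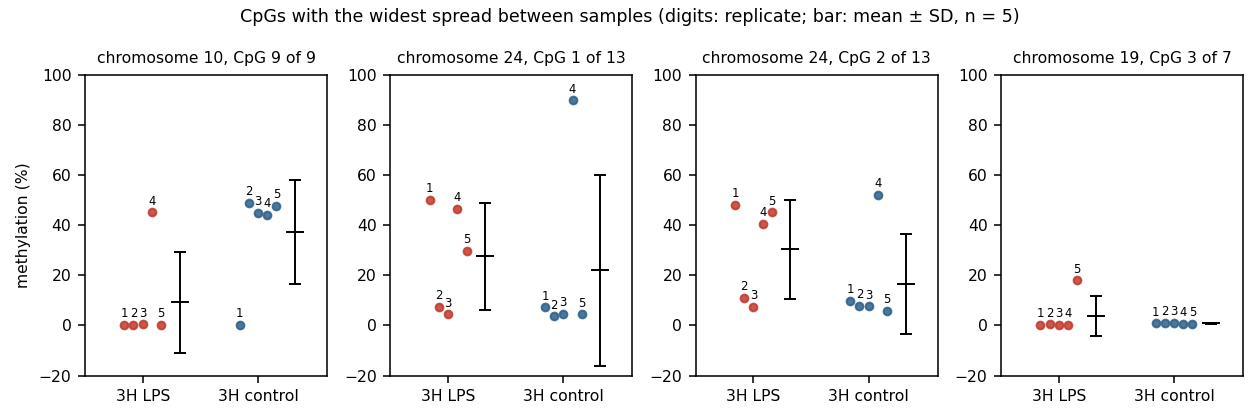
Methylation in percent of each LPS sample (red, left) and each control (blue, right) at the CpGs where samples fell on separate levels, and at the most variable CpG of chromosome 19, with replicate numbers and mean ± SD (n = 5). On chromosome 10, 4 controls and 1 LPS sample sit at 44.2% or higher; at the first CpG of chromosome 24, control 4 is alone at 89.7%; on chromosome 19, LPS sample 5 is alone at 17.98%.

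The chromosome 18 amplicon (39636122 to 39636564, 18 CpGs in 443 bp) was heavily methylated at 15 CpGs and read 0% at 3 sparsely read positions (39636122, 39636133 and 39636564), at which 0 methylated reads were seen in either group. Per sample, those 3 positions had between 0 and 84 reads, and control 1 had too few at each of them to be counted. The amplicon read 71.2%, 70.7%, 70.1%, 70.0% and 70.1% in LPS samples 1 to 5, against 96.2%, 71.6%, 70.1%, 70.1% and 70.9% in controls 1 to 5. On the 15 CpGs that every sample covered it was 85.5%, 84.8%, 84.1%, 84.1% and 84.1% in LPS samples, against 96.2%, 85.9%, 84.1%, 84.1% and 85.1% in controls. Control 1 stood apart in both cases and the other 9 samples lay close together. The amplicon difference was -5.35 percentage points over 18 CpGs (exact permutation interval -13.8 to 0.558, adjusted p = 0.432), -2.57 over the 15 CpGs, and -0.249 without control 1.

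Along chromosome 18, methylation was lower in the first part and higher in the last. From 39636145 to 39636223, 6 CpGs had group means between 76.8% and 83.3% in LPS samples and between 79.5% and 86.0% in controls. CpG 39636305 dipped to 74.1% ± 0.507 in LPS samples and 78.8% ± 8.61 in controls (75.1% ± 2.599 in controls without control 1), and the highest mean was 93.4% ± 0.387 in LPS samples and 94.7% ± 2.72 in controls (93.4% ± 0.454 without control 1) at 39636518 (SD, n = 5 each, or 4 without control 1). Without control 1, the first 6 CpGs had control means between 76.5% and 83.2%. Control 1 was the highest of the 10 samples at 15 of the 15 well-read CpGs, and the control SD was larger than the LPS SD at each of these. Without control 1 it was larger at 10 of 15. LPS means were lower at 15 of 15 with control 1 and at 10 of 15 without it. The CpG of smallest p was 39636523, at 86.5% ± 1.64 in LPS samples and 89.8% ± 3.63 in controls (SD, n = 5 each; edgeR adjusted p = 0.686), and the difference of -3.34 percentage points became -1.84 without control 1.

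The chromosome 19 amplicon (27019198 to 27019584, 7 CpGs in 387 bp) read 74.5%, 75.6%, 74.6%, 75.2% and 73.4% in LPS samples 1 to 5, against 75.5%, 74.2%, 74.8%, 75.5% and 75.3% in controls 1 to 5. The groups overlapped, and LPS sample 5 was the lowest. Means were 74.6% ± 0.804 in LPS samples and 75.1% ± 0.542 in controls (SD, n = 5 each; difference -0.428 percentage points, exact permutation interval -1.46 to 0.544, adjusted p = 0.476). The amplicon mean hides a mixed profile: 6 CpGs were between 75.8% and 95.1% in LPS samples and between 75.9% and 95.2% in controls, and 27019282 was near 0.

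CpG 27019282, 3 bp from a CpG at 77.3% or more in every sample, read 0.292%, 0.442%, 0.227%, 0.177% and 17.98% in LPS samples 1 to 5, against 0.789%, 0.978%, 1.07%, 0.487% and 0.550% in controls 1 to 5. LPS sample 5 was far above the rest, with 87 methylated of 484 reads (Wilson 95% interval 14.8% to 21.6%). The other 4 LPS samples were below all 5 controls. Without LPS sample 5 the means were 0.285% ± 0.115 in LPS samples (SD, n = 4) and 0.774% ± 0.255 in controls (SD, n = 5), a difference of -0.489 percentage points chosen after the values were seen and not tested. With all samples the direction depended on the measure: the mean difference was 3.05 percentage points, while the edgeR log2 odds difference was -0.70, and the CpG did not pass (edgeR adjusted p = 0.892). In the same library the neighbours were low: 27019198 was at 81.0% in LPS sample 5, against 86.6% to 89.0% in the other LPS samples and 85.3% to 89.4% in controls. CpG 27019279 was at 77.3% in LPS sample 5, against 84.6% to 86.8% in the other LPS samples and 84.9% to 87.1% in controls. LPS sample 5 was the lowest of the 10 at 4 of the 7 CpGs. Over the 6 methylated CpGs it was at 82.7%, with the other LPS samples from 86.8% to 88.1% and controls from 86.5% to 88.1%. The amplicon difference was -0.127 without LPS sample 5.

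**Figure D5:**
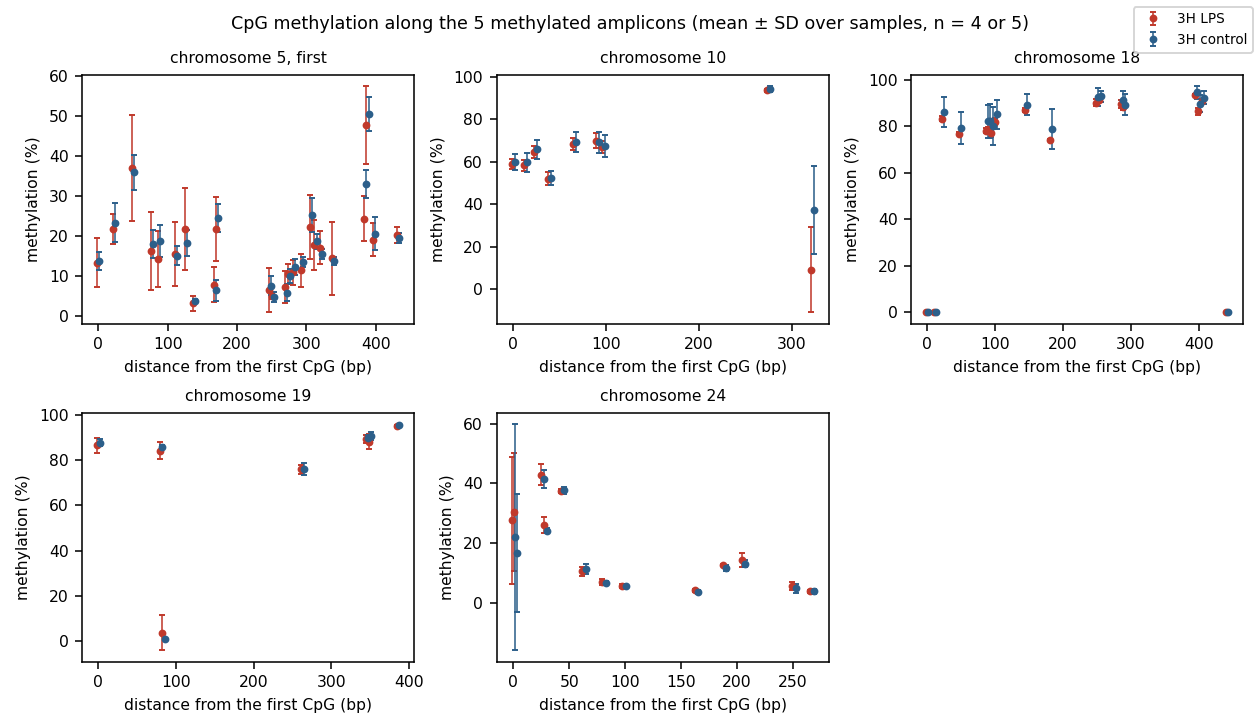
Methylation in percent (mean ± SD over samples, n = 4 or 5) of each CpG against its distance in bp from the first CpG, for the 5 amplicons with methylated CpGs, LPS in red and control in blue. Levels change sharply between neighbouring CpGs while the groups follow a similar profile at most CpGs. The longest error bars are at the last CpG of chromosome 10 and the first pair on chromosome 24. Group means part at the last CpG of chromosome 10 (9.19% in LPS samples, 37.2% in controls). They also part at 21640624 of chromosome 24 (30.4% in LPS samples, 16.6% in controls).

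The first chromosome 5 amplicon (44944720 to 44945152, 24 CpGs in 433 bp) read 13.3%, 13.5%, 21.0%, 17.5% and 19.8% in LPS samples 1 to 5, against 18.2%, 19.5%, 19.4%, 18.2% and 14.3% in controls 1 to 5. LPS samples 1 and 2 lay below all controls and LPS samples 3 and 5 above all of them. The means were 17.01% ± 3.55 in LPS samples and 17.9% ± 2.11 in controls (SD, n = 5 each; difference -0.891 percentage points, exact permutation interval -5.48 to 3.53, adjusted p = 0.675). LPS samples 1, 3 and 5 rested on medians of 22, 24 and 33 reads per CpG. The difference was 0.0472 without LPS sample 1, and 0.332 by the median over CpGs. At minimums of 30 or 100 reads no CpG of this amplicon was kept, so it gave no value there.

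Methylation rose and fell along this amplicon in both groups. Its lowest mean was 3.23% ± 1.87 in LPS samples and 3.70% ± 0.502 in controls at 44944858, and its highest was 47.8% ± 9.73 in LPS samples and 50.5% ± 4.34 in controls at 44945108 (SD, n = 5 each). A second peak was at 44944770, with 37.0% ± 13.3 in LPS samples and 36.0% ± 4.35 in controls. A stretch of 6 CpGs from 44944967 to 44945013 lay between 5.02% and 11.5% in LPS samples and between 4.85% and 13.7% in controls. The SD was larger in LPS samples at 21 of 24 CpGs, and the median SD over CpGs was 5.59 percentage points in LPS samples and 2.39 in controls. In LPS samples the variance between samples was 0.985 times what read sampling alone gives (median over CpGs), against 10.2 times in controls, so at this depth counting error was about as large as the spread of the LPS samples at the median CpG. The ratio was above 1 at 12 of the 24 CpGs and reached 2.84 at 44944770. CpG 44945105 had the smallest p: 18.2%, 21.6%, 25.0%, 23.6% and 33.3% in LPS samples 1 to 5, against 31.6%, 35.5%, 35.5%, 35.1% and 27.6% in controls 1 to 5. All LPS samples but sample 5 were below all controls (log2 odds difference -0.62, edgeR adjusted p = 0.356).

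The spread between samples was compared in its own right, by an exact permutation test of the mean absolute deviation from the group median, adjusted over the 8 amplicons. No amplicon passed (0 called and 0 at an unadjusted p under 0.05; adjusted p from 0.698 to 0.952). With deviations taken from the group mean, chromosome 18 had an exact permutation p = 0.00794 and adjusted p = 0.0635. This p depends on control 1, which lacks the 3 positions at 0%. At 96.2% it drew the control mean to 75.8%, away from the other controls at 70.1% to 71.6%. On simulated data without a difference in spread the test by medians gave small p-values less often than its nominal rate, so it can miss differences. The largest gaps were on chromosome 18, with a mean absolute deviation of 0.350 percentage points in LPS samples and 5.51 in controls (0.420 in LPS samples and 2.77 in controls on the 15 CpGs that every sample covered), in the first chromosome 5 amplicon, with 2.81 in LPS samples and 1.27 in controls, and on chromosome 10, with 2.28 in LPS samples and 3.73 in controls. Without control 1 the SD on chromosome 18 was 0.514 in LPS samples and 0.714 in controls, and without LPS sample 5 the SD on chromosome 19 was 0.512 in LPS samples and 0.542 in controls. Over single CpGs the SD was larger in LPS at 51 of 139 (36.7%), larger in controls at 82, and 0 in both at 6. The count differed by amplicon. The SD was larger in LPS at 21 of 24 CpGs of the first chromosome 5 amplicon and 5 of 7 on chromosome 19 (2 of 7 without LPS sample 5). This held at 4 of 19 on chromosome 23 and 9 of 26 on chromosome 3. It held at 0 of 9 on chromosome 10 and 0 of the 15 well-read CpGs on chromosome 18. Without control 1 it held at 2 of 9 on chromosome 10 and 5 of 15 on chromosome 18. In the amplicons other than the first of chromosome 5, the median variance between samples was 2.62 to 18.3 times that of read sampling in LPS samples and 3.75 to 47.7 times in controls.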

How the data were processed

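Gonad DNA was converted with bisulfite and amplified, per the labels' protocols. Trim Galore 0.4.5, FastQC 0.11.6, Bowtie2, Bismark and the build GRCz11 are named in the submitters' processing notes; the labels state no settings. Deposited tables hold whole-number counts of methylated and unmethylated reads and the percent methylated per position. The deposited percent equalled that recomputed from the counts.

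Kept CpGs at most 500 bp apart were joined into amplicons of at least 3 CpGs. An amplicon's value in a sample is the unweighted mean of the percent over its CpGs. Exact permutation tests used all arrangements of 5 against 5, and intervals invert that test. Counts per CpG were tested with edgeR 4.0.16 (R 4.3.3) on the 10 samples of the 3H set, with 1 intercept per sample; limma 3.58.1, with 0.5 added to each count, was an alternative. Every amplicon was named. Full statistics were computed for CpGs with the 2 smallest p per amplicon, those without overlap, and those at separate levels. Separate levels means samples divided by a gap of 10 or more percentage points, 2 or more to a side. The highest, lowest and most variable CpG of each amplicon was listed for description. Not all CpGs of either list are printed here, and some other CpGs were picked after their values were seen. Members and tests were chosen with earlier results of these data known. Both kinds of test were tested on simulated data. There edgeR recovered 19% of the changed CpGs at a change of 0.5 in natural log odds, and 85.5% at a change of 1. The changes were placed only at CpGs with a mean over 2%, so recovery at lower levels was not tested. Tables and figures were made in Python 3.11.15 with scipy 1.17.1 and numpy 2.4.6, reading by pandas 2.3.3 and plotting by matplotlib 3.10.9. No gene name was matched, since the gene table at hand is of another build. No samples held identical values.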

Additional observations from a re-analysis of the deposited data

Results flagged for a closer look

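Among the amplicon means and the CpGs with full statistics, 9 single samples lay far from the other 4 of their group, in 48 groups of 5 tested. Chance flags about 1 in 20 independent groups, but these CpGs were partly chosen for separate levels and enter the amplicon means, so the number of flags cannot be set against that rate. Chromosome 18 was at 96.2% in control 1, with the other controls from 70.1% to 71.6%; control 1 lacks the 3 positions at 0%, and on the 15 CpGs that every sample covered the other controls were at 84.1% to 85.9%. In the first chromosome 5 amplicon, control 5 was at 14.3%, with the other controls from 18.2% to 19.5%. On chromosome 24, control 4 was at 23.7%, with the others from 12.9% to 14.1%, and its CpGs 21640622 and 21640624 were at 89.7% and 52.1% in this sample. At 44956872 of chromosome 10, LPS sample 4 was at 45.1% and control 1 at 0.271%, each far from its own group. CpG 27019279 of chromosome 19 was at 77.3% in LPS sample 5. CpG 24973822 of chromosome 23 was at 0.3998% in LPS sample 5, with the other LPS samples from 0.497% to 0.512%, so this gap is small.

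Methylated reads also appeared in LPS sample 5 at 5 positions outside the kept CpGs that had no reads in any control. These were 100% of 16 reads at 34963461 of chromosome 16, 83.8% of 74 reads at 41959519 of chromosome 18, 100% of 20 reads each at 295466 and 295487 of chromosome 24, and 36.0% of 25 reads at 45000499 of chromosome 5.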

How the results depend on the processing

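Amplicon and CpG results were recomputed at read minimums of 5, 30 and 100, on the CpGs that every sample covered, with limma, exact tests per CpG, all 20 samples in 1 fit, pooled reads, medians, a log2 ratio, without CpGs at separate levels, and without each sample. Alternatives without sparsely read positions and with CpGs kept in all 4 groups were added after seeing the data. The count of called CpGs was 0 in most settings. It was 1 with the replicate block (24973894 of chromosome 23, edgeR adjusted p = 0.0470) and from 0 to 1 without single samples.

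Of the 8 amplicons, 2 were called. By the median over CpGs 0 were, with differences of -0.188 on chromosome 23 and -0.132 in the second chromosome 5 amplicon, and the first chromosome 5 amplicon turned to 0.332. Without single samples, 0 to 2 were called: differences ran from -0.214 to -0.170 on chromosome 23, from -0.166 to -0.135 in the second chromosome 5 amplicon and from -1.89 to 0.0472 in the first. On the log2 ratio, chromosome 18 passed (-0.86, exact permutation adjusted p = 0.0423); at its 0% positions this ratio moves with depth by construction. The causes of the other changes were not tested.

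With the replicate block, an exact sign-flip test over same-numbered samples, 0 amplicons were called, with -0.192 on chromosome 23 and -0.148 in the second chromosome 5 amplicon (adjusted p = 0.167); 5 pairs cannot give a p under 0.0625. Whether the numbers pair the samples is not stated in the labels. Same-numbered deviations over 132 CpGs correlated between -0.219 and 0.209. Of the 5 LPS samples, 2 correlated best with the control of their own number. These correlations cannot decide whether the design was paired.

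Differences in spread, LPS minus control, changed sign in some settings, so their direction there is not settled. In the main test they were -0.00123 in the second chromosome 5 amplicon, 0.404 on chromosome 24 and -0.0244 on chromosome 3. From the group mean they were 0.00127 in the second chromosome 5 amplicon and -0.180 on chromosome 24, and on CpGs that every sample covered 0.00098 in the second chromosome 5 amplicon. Without single samples they ran from -0.0106 to 0.00934 in that amplicon, from -0.338 to 2.30 on chromosome 24 and from -0.0523 to 0.00737 on chromosome 3. CpG 27019279 of chromosome 19 ran from -2.26 to 0.131 without single samples, the turn coming without LPS sample 5.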
